A study of Homo sapiens with 4 samples.

Results

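Glycolysis and hypoxia genes are described here in 4 RNA sequencing libraries of 2 human cancer cell lines. The members are 36 genes chosen by symbol, and all 36 were found once each among the 59533 genes whose symbol is unique in the deposited table. HCC1937 comes from a breast carcinoma, while THP-1 grows as leukaemic monocytic cells. By their labels both are p53-/- and carry p53-R282W by infection, a mutant of the tumour suppressor p53. Every library carries that label, so nothing here compares cells with and without the mutant. In each line 1 library is from cells without treatment and 1 from cells given DAC (decitabine), a cytidine analogue that is built into DNA and inhibits DNA methyltransferases. The dose was 0.3 µM over 5 days in HCC1937 but 5 µM over 2 days in THP-1, so line, dose and time differ together and cannot be told apart. Each group is a single library, so the spread between cultures is unknown. Differences within a line carry no p-value, and intervals beside them cover counting error only.

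Glycolysis splits glucose into pyruvate in the cytosol and yields ATP without oxygen. Glucose enters through transporters of the SLC2A family, is trapped by hexokinase, and passes through phosphofructokinase, aldolase and the later enzymes to pyruvate, which lactate dehydrogenase can turn into lactate. When oxygen is low, the prolyl hydroxylases of the EGLN family no longer mark HIF1A, a subunit of the hypoxia-inducible factor, for degradation. The stabilised factor then binds short DNA elements with the core ACGTG or GCGTG and raises many glycolysis genes together with VEGFA, CA9 and others. HIF activity is set largely by protein stability, which RNA levels do not show, and neither protein, metabolites nor DNA methylation was measured here.

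Promoter sequences of the 4 members with the largest differences that have an entry in the RefSeq promoter table (GRCh38.p14) are shown first, since DAC acts on DNA methylation at CpG sites and HIF binds near gene starts. Each runs 5′ to 3′ on the gene's own strand, from 250 bases before to 50 after the start. Capitals mark ACGTG on either strand, which reads CACGT where it lies on the opposite strand. CA9 is at chr9:35673678-35673977 (plus strand), ALDOC at chr17:28576846-28577145, CA12 at chr15:63381797-63382096 and BNIP3 at chr10:131981874-131982173 (all minus strand).

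CA9: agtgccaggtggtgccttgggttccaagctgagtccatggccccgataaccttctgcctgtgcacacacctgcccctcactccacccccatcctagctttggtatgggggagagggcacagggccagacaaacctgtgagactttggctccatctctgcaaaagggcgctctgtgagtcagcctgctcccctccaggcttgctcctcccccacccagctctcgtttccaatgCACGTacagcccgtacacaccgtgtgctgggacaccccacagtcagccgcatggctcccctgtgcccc
ALDOC: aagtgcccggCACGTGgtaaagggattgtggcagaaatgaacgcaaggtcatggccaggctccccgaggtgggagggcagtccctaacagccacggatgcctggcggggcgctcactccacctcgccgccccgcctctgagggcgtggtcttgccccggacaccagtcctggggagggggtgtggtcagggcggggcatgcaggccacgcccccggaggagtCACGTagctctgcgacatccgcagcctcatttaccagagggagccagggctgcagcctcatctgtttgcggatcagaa
CA12: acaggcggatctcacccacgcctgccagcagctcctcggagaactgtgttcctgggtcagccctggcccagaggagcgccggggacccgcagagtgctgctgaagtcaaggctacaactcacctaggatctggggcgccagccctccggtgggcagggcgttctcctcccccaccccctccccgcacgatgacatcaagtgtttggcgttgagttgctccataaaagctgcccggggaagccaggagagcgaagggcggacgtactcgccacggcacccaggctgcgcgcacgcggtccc
BNIP3: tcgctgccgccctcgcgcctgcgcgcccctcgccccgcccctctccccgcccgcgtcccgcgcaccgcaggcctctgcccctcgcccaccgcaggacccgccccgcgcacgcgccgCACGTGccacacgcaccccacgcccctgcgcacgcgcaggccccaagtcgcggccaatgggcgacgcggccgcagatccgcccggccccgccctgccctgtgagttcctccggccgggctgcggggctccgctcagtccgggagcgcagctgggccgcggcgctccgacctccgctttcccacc

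The window of CA9 held 1 ACGTG match, 14 to 18 bases before the start, and 7 CpG. The window of ALDOC held 2 matches, with 1 of them as CACGTG, and 19 CpG. The BNIP3 window also held 1 match as CACGTG, which reads the same on both strands and is also the core of an E-box, and 48 CpG. No ACGTG was found in the CA12 window, which had 22 CpG. Matches to GCGTG numbered 0 in CA9, 2 in ALDOC, 2 in CA12 and 4 in BNIP3. All promoter windows in the table had a median of 14 CpG, so CA9 lay below and BNIP3 well above it. Of 36 members 32 had at least 1 window, and SLC2A3, VEGFA, NDRG1 and BNIP3L had none. ACGTG was found in at least 1 window of 19 of these 32 (59.4%), against 24.9% of the 27305 genes in the table. Counted by window, it was in 39.7% of the 58 windows of members and in 21.4% of all 35116 windows. GCGTG was found in 41.4% of the members' windows and in 36.5% of all windows. The members' windows had a median of 28 CpG, against 14 in all windows, and both motifs hold a CpG. The part of CpG content in these shares was not tested. Members were listed as glycolysis and hypoxia genes, many of which HIF raises through these motifs, so a higher share could follow from that choice. The count by gene also rises with the number of windows per gene. A match is a run of letters and not a measured binding site.

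The libraries were close in depth, at about 18710000 to 19650000 counted reads as estimated from the spacing of the values. Values are FPKM, that is, fragments scaled to gene length and to library depth. The 13 epithelial markers were all at 1 FPKM or more in both HCC1937 libraries, and the 14 myeloid markers in both THP-1 libraries. In HCC1937 the summed level of the 14 myeloid markers was 12.5 FPKM untreated and 34.1 with DAC, with 3 and 5 of them at 1 FPKM or more and 4 and 3 listed at 0. In THP-1 the summed level of the 13 epithelial markers was 27.8 and 34.7 FPKM, with 3 and 4 at 1 FPKM or more and 2 listed at 0 in both. The part of these markers' cells in the results was not tested. The THP-1 columns rest on other gene lengths than those of HCC1937, so levels are compared between the lines only roughly.

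The members differed little with DAC in size, but in THP-1 they lay almost all on the lower side. Genes entered the count for a line when either library reached 1 FPKM (kept genes). A kept gene was called when log2(FPKM + 1) differed by 2-fold or more. In HCC1937, 34 of 36 members were kept, PDK1 and EGLN3 being below 1 FPKM in both libraries. Of these 34, 2 were called higher (SLC2A3 and CA9), against 10.3% of all kept genes, and 0 were called lower, against 1.44%. Both called members, and also CA12 and MXI1, were kept through the DAC library alone, so these 4 had to be higher. Of the 30 members at 1 FPKM or more in both HCC1937 libraries, 13 were higher and 17 lower. In THP-1, 32 members were kept and 0 were called, against 1.14% of all kept genes called higher and 0.364% lower. CA9 and EGLN3 were listed at 0 in both THP-1 libraries, and CA12 and ADM did not exceed 0.02 and 0.16 FPKM.

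By direction alone, 28 of 32 members were lower in the THP-1 DAC library, against 34.7% of all kept genes and 56.5% of kept genes with a mean of 50 FPKM or more. The other 4 were higher, as were 65.0% of all kept genes. The median log2 difference of the members was -0.26, beside 0.07 for all kept genes. The middle part of the members ran from -0.34 to -0.19 (quartiles), and the quartiles of all kept genes were -0.05 and 0.20. In HCC1937, 17 of 34 members were lower, against 33.5% of all kept genes and 64.9% of those with a mean of 50 FPKM or more. There the median of the members was -0.00 and that of all kept genes 0.19. Scaling within a pair, by median of ratios or by upper quartile, brought the median of all kept genes to 0.01 and 0.05 in HCC1937 and to 0.00 and 0.04 in THP-1. Under them 21 and 20 of 34 members were lower in HCC1937, and 29 and 28 of 32 in THP-1. In HCC1937 the members ADM, P4HA1 and P4HA2 turned to the lower side under both scalings and BNIP3L under median-of-ratios scaling. In THP-1 HIF1A turned to the lower side under median-of-ratios scaling. These factors come from kept genes. With factors from all genes above 0, 22 of 34 HCC1937 members were lower under each scaling, PFKP among them, and 4 were called, with PFKL and ALDOC lower.

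**Figure D1:**
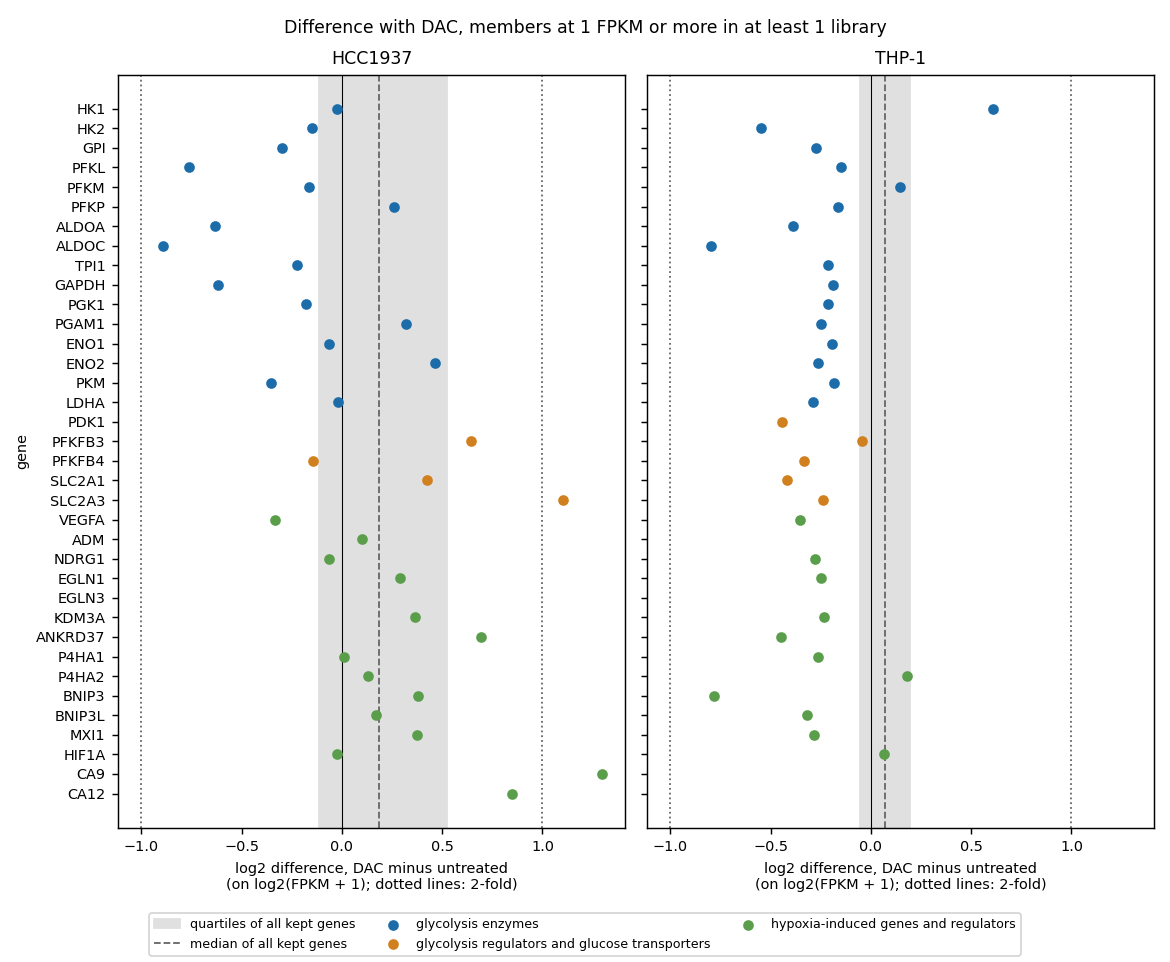
The log2 difference (DAC minus untreated, on log2(FPKM + 1)) of each kept member in HCC1937 (left) and THP-1 (right), 1 library per group, with no error bars. The grey band and dashed line give the quartiles and median of all kept genes, and dotted lines mark 2-fold. In THP-1 28 of 32 members lie below 0, while in HCC1937 17 of 34 do.

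Glycolytic enzymes were mostly lower with DAC in both lines, with ALDOC furthest below 0 in both. Of the 16 enzymes, 13 were lower in HCC1937 and 14 in THP-1, with a median log2 difference of -0.17 and -0.21. Of all kept genes 33.5% and 34.7% were lower, with medians of 0.19 and 0.07. Of those with a mean of 50 FPKM or more, 64.9% and 56.5% were lower, with medians of -0.16 and -0.02. In HCC1937 the median of the enzymes was close to that of genes at a high level. That class does not hold all of them, since HK1, HK2, GPI, PFKL, PFKM, PFKP, ALDOC, PGAM1 and ENO2 were below 50 FPKM in both HCC1937 libraries. Their summed level was lower by 26.6% in HCC1937 and by 14.5% in THP-1, and GAPDH alone makes up much of that sum. None of the 16 reached 2-fold in either direction in either line. At 1.5-fold, PFKL, ALDOA, ALDOC and GAPDH were lower in HCC1937 (5.91% of all kept genes were lower by that much). Of the 1003 kept HCC1937 genes with a mean of 50 FPKM or more, 150 were lower by that much. ALDOC was the enzyme lower by 1.5-fold in THP-1 (background 1.0%), and HK1 the enzyme higher by it (background 3.3%).

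Hexokinases phosphorylate glucose and so hold it in the cell. HK1, the broadly expressed form, stood at 20.0 FPKM untreated and 19.7 with DAC in HCC1937, and at 11.6 and 18.3 FPKM in THP-1. HK2, the form induced by insulin and hypoxia, stood at 18.4 and 16.5 FPKM in HCC1937 and at 12.9 and 8.47 FPKM in THP-1. In THP-1 the order of the pair turned over, with HK2 slightly above HK1 untreated and HK1 above HK2 with DAC. The ratio of DAC to untreated there was 1.57 for HK1 (95% counting interval 1.45 to 1.70) and 0.659 for HK2 (0.606 to 0.715). HK1 lay above 97.0% of all kept THP-1 genes in its log2 difference of 0.61. GPI, the isomerase that follows, stood at 29.4 and 23.7 FPKM in HCC1937 and at 145.7 and 120.2 in THP-1, lower in both.

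Phosphofructokinase commits sugar to glycolysis and is built from 3 kinds of subunit. PFKL, the liver form, stood at 28.3 FPKM untreated and 16.3 with DAC in HCC1937 (ratio 0.575, interval 0.549 to 0.603), and at 143 and 129 FPKM in THP-1. PFKP, the platelet form, stood at 32.1 and 38.7 FPKM in HCC1937 and at 200 and 178 FPKM in THP-1. PFKM, the muscle form, was the lowest of the 3 in every library, at 6.80 and 5.96 FPKM in HCC1937 and 1.05 and 1.27 FPKM in THP-1. PFKL and PFKP thus went opposite ways in HCC1937 and the same way in THP-1, except that PFKP lay below 0 in HCC1937 with factors from all genes above 0.

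Aldolase cleaves the 6-carbon sugar. ALDOA, the main form of most tissues, stood at 193 FPKM untreated and 124 with DAC in HCC1937, and at 807 and 616 FPKM in THP-1. ALDOC, the form known from brain, stood at 30.5 and 16.0 FPKM in HCC1937 and at 63.0 and 35.8 FPKM in THP-1. Both genes were lower in both lines. The ratio of ALDOC was 0.523 (interval 0.482 to 0.568) in HCC1937 and 0.568 (0.532 to 0.607) in THP-1. On the scale used its log2 differences of -0.89 and -0.80 were short of 2-fold. Under both scalings ALDOC passed 2-fold in HCC1937 but not in THP-1. ALDOC was also the member lower by at least 1.5-fold in both lines, which 10 of 9798 genes kept in both were (0.102%).

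Among the later enzymes, GAPDH passed 1.5-fold in HCC1937 and none did in THP-1. TPI1, which interconverts the products of aldolase, stood at 290.3 and 248 FPKM in HCC1937 and at 295.1 and 254 FPKM in THP-1, for ratios of 0.854 and 0.862. GAPDH, often used as a reference gene, stood at 2037 FPKM untreated and 1329 with DAC in HCC1937, and at 3113 and 2726 FPKM in THP-1. It was the highest member in all 4 libraries, and its ratio was 0.652 (interval 0.646 to 0.658) in HCC1937 and 0.876 (0.869 to 0.883) in THP-1. PGK1, the first ATP-yielding enzyme, stood at 85.0 and 74.9 FPKM in HCC1937 and at 319 and 275 FPKM in THP-1. PGAM1, a mutase, went from 31.7 to 39.9 FPKM in HCC1937 and from 240.4 to 202 FPKM in THP-1. It was thus higher in HCC1937 and lower in THP-1.

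ENO1, the general enolase, stood at 331 and 317 FPKM in HCC1937 and at 905 and 791 FPKM in THP-1. ENO2, the enolase known from neurons, stood at 8.67 and 12.4 FPKM in HCC1937 and at 2.04 and 1.53 FPKM in THP-1, where the counting interval of its ratio held 1. PKM, pyruvate kinase, stood at 261 and 204 FPKM in HCC1937 and at 479 and 422 FPKM in THP-1; its PKM1 and PKM2 splice forms share 1 line of the table. LDHA, which makes lactate, stood at 57.1 and 56.3 FPKM in HCC1937, where its interval held 1, and at 386 and 315 FPKM in THP-1. Several of these genes (GAPDH, PGK1, PGAM1, ENO1, TPI1 and LDHA among them) have processed pseudogenes or close copies, so the share of reads assigned to them is uncertain.

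**Figure D2:**
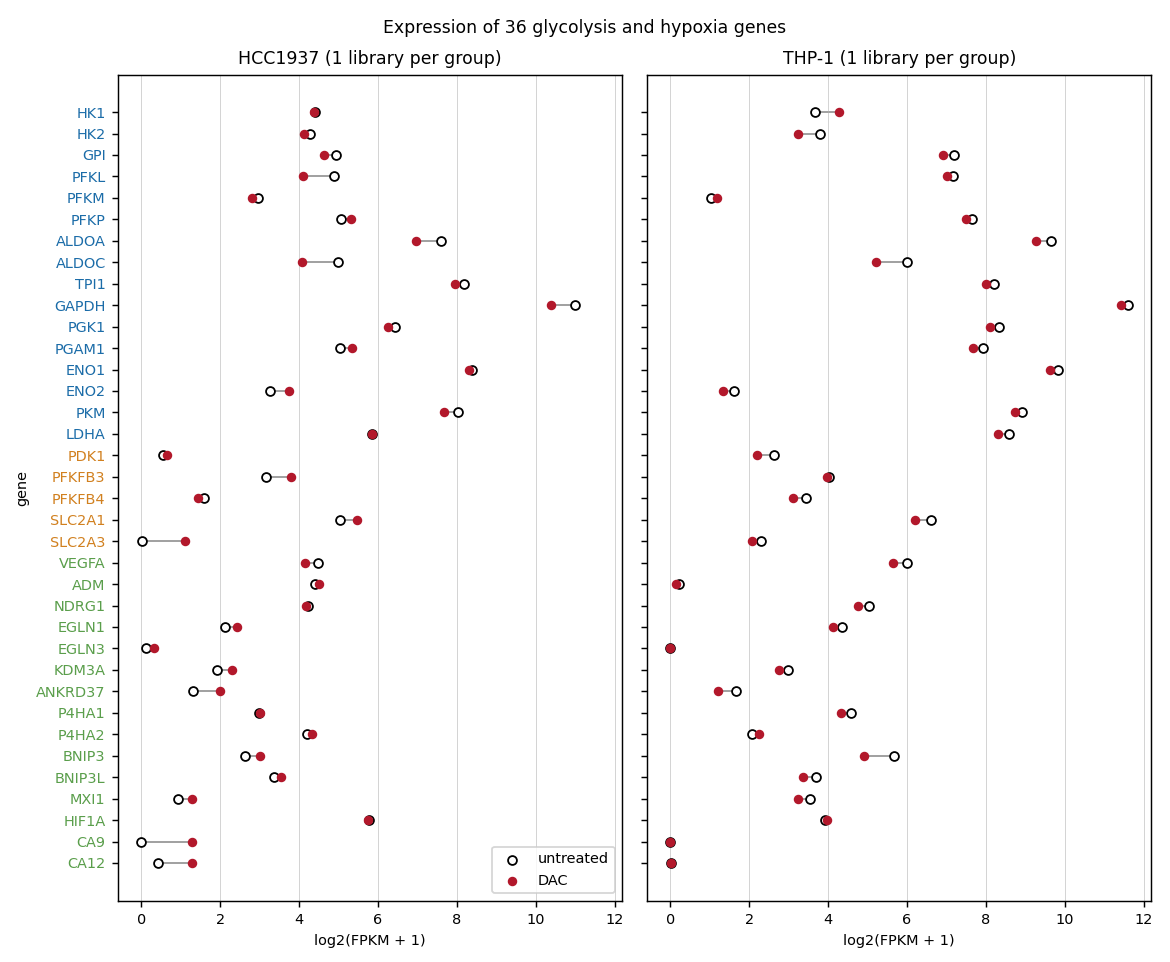
The level of each of the 36 members as log2(FPKM + 1), untreated (open points) and with DAC (red points), in HCC1937 (left) and THP-1 (right), with 1 library per point. Gene names are coloured by role (blue, enzymes; orange, regulators and transporters; green, hypoxia genes). GAPDH is highest throughout, and ALDOC is shifted to the left with DAC in both lines.

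Glucose transporters and regulators of glycolysis were lower in THP-1 in all 5 of 5 kept members (median log2 difference -0.34, background 34.7% lower). In HCC1937 3 of 4 were higher (median 0.53), near the 66.2% of all kept genes, and SLC2A3 among them was kept through the DAC library alone. SLC2A1, the main basal glucose transporter (GLUT1), stood at 32.1 FPKM untreated and 43.3 with DAC in HCC1937, and at 97.2 and 72.4 FPKM in THP-1. Its ratio was 1.35 (interval 1.29 to 1.42) in HCC1937 and 0.745 (0.718 to 0.772) in THP-1. SLC2A3, a high-affinity transporter (GLUT3) of neurons and white blood cells, stood at 0.01 and 1.17 FPKM in HCC1937, from about 1 and 135 reads. That is 117-fold with an interval of 23.8 to 5365, at a level with DAC that stays far below SLC2A1. In THP-1 SLC2A3 stood at 3.96 and 3.20 FPKM. SLC2A3 has a near-identical copy, SLC2A14, so the split of reads between them is uncertain.

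PFKFB3 and PFKFB4 make fructose 2,6-bisphosphate, the strongest activator of phosphofructokinase. PFKFB3 stood at 7.95 FPKM untreated and 13.0 with DAC in HCC1937 (ratio 1.63, with its interval above 1) and at 15.3 and 14.8 FPKM in THP-1, where the interval held 1. PFKFB4 stood at 2.00 and 1.71 FPKM in HCC1937, where the interval held 1, and at 9.90 and 7.64 FPKM in THP-1. PDK1, a kinase that shuts pyruvate dehydrogenase and so turns pyruvate from the mitochondria, stood at 0.46 and 0.56 FPKM in HCC1937 and at 5.21 and 3.57 FPKM in THP-1. PDK1 passed 1 FPKM in both THP-1 libraries and in neither HCC1937 library, and its THP-1 interval lay below 1.

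Among hypoxia genes, 9 of 11 kept members were lower in THP-1 (background 34.7%). In HCC1937 11 of 14 were higher, near the 66.2% of all kept genes, and CA9, CA12 and MXI1 among them had to be. Without these 3 the count was 8 of 11, and a filter at 5 FPKM left 5 of 8. Their median log2 difference was 0.23 in HCC1937, close to the 0.19 of all kept genes, and 7 of 14 were higher under median-of-ratios scaling and 8 under upper-quartile scaling. In THP-1 their median was -0.28, and 10 and 9 of 11 were lower under these scalings. HIF1A was at 53.96 FPKM untreated and 53.01 with DAC in HCC1937 and at 14.1 and 14.8 FPKM in THP-1. Its counting interval held 1 in both lines as deposited. In HCC1937 its log2 difference of -0.03 became -0.24 under median-of-ratios scaling and -0.19 under upper-quartile scaling, both beyond that interval. EGLN1, the main oxygen sensor that marks HIF1A, stood at 3.36 and 4.33 FPKM in HCC1937 and at 19.6 and 16.3 FPKM in THP-1. EGLN3, a sensor itself induced by hypoxia, stood at 0.08 and 0.25 FPKM in HCC1937.

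Among secreted and surface products, VEGFA, which drives vessel growth, was at 21.4 FPKM untreated and 16.8 with DAC in HCC1937, and at 63.2 and 49.2 FPKM in THP-1. It was lower in both lines by a like ratio, 0.784 (interval 0.754 to 0.815) and 0.779 (0.746 to 0.814). ADM, the vasodilator peptide adrenomedullin, stood at 20.1 and 21.6 FPKM in HCC1937. CA9, a membrane carbonic anhydrase and a common hypoxia marker, had 0 FPKM untreated but 1.46 FPKM with DAC in HCC1937, from about 46 reads. Against a floor of 3 reads in the untreated library that is 15.3-fold higher, and the counting interval of the ratio starts lower, at 12.0. CA12, a related enzyme of epithelia, stood at 0.35 and 1.43 FPKM, which is 4.09-fold (interval 2.96 to 5.72) and is called with a pseudocount of 0.1 but not with 1. Both carbonic anhydrases were thus low in HCC1937 and higher with DAC, and near or at 0 in THP-1.

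BNIP3 and BNIP3L, mitochondrial receptors for mitophagy, were higher in HCC1937 and lower in THP-1 as deposited. BNIP3 stood at 5.18 FPKM untreated and 7.05 with DAC in HCC1937, and at 50.2 and 28.8 FPKM in THP-1. The THP-1 ratio of 0.574 (interval 0.540 to 0.610) placed BNIP3 above only 0.54% of all kept genes of that line, next to ALDOC at 0.51%. BNIP3L stood at 9.25 and 10.6 FPKM in HCC1937 and at 11.9 and 9.33 FPKM in THP-1. Its HCC1937 log2 difference of 0.17 was below the median of 0.19 of all kept genes. Under median-of-ratios scaling BNIP3L was lower in HCC1937. ANKRD37, an ankyrin repeat protein and HIF target, stood at 1.47 and 2.99 FPKM in HCC1937 and at 2.15 and 1.31 FPKM in THP-1, from 29 to 144 reads. It showed the same crossing as BNIP3, on few reads.

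KDM3A, a histone demethylase, stood at 2.81 and 3.91 FPKM in HCC1937 and at 6.96 and 5.78 FPKM in THP-1. MXI1, which opposes MYC, stood at 0.90 and 1.46 FPKM in HCC1937 and at 10.6 and 8.48 FPKM in THP-1. Both were higher in HCC1937 and lower in THP-1, but MXI1 passed the HCC1937 filter through the DAC library alone. NDRG1, a stress-induced gene, stood at 17.8 and 17.0 FPKM in HCC1937, where the interval held 1, and at 32.0 and 26.2 FPKM in THP-1. The collagen prolyl hydroxylase subunit P4HA1 stood at 6.95 and 7.01 FPKM in HCC1937 and 22.9 and 18.9 FPKM in THP-1. P4HA2, the other catalytic subunit, stood at 17.5 and 19.2 FPKM and at 3.18 and 3.74 FPKM, and was the member higher in both lines as deposited, though it was lower in HCC1937 under both scalings.

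Counting intervals are given for the values as deposited, without scaling. In THP-1 the counting interval of the ratio lay below 1 in 26 of 32 kept members, above 1 in 1 (HK1) and held 1 in 5. In HCC1937 it lay below 1 in 12 of 34, 11 of them enzymes, above 1 in 15 and held 1 in 7. The share of all kept genes with an interval off 1 was not counted. Intervals narrow as reads rise, so genes at a high level leave 1 at small differences. These intervals do not include differences between cultures, which 1 library per group does not show.

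The make-up of several enzyme families differed between the libraries. Each share here is that of 1 gene in the summed FPKM of its family within 1 library. The hexokinase sum of THP-1 went from 42.8 to 46.9 FPKM while the share of HK2 went from 30.0% to 18.1% and that of HK1 from 27.2% to 38.9%. HK3, the white blood cell form, held 42.8% and 42.9% of it. In HCC1937 the hexokinase-like HKDC1 went from 0.62 to 6.25 FPKM, and its share from 1.59% to 14.6%. Its ratio was 10.1 (interval 7.58 to 13.9).

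In HCC1937 the share of PFKP among phosphofructokinases went from 47.8% to 63.5% and that of PFKL from 42.1% to 26.7%. In THP-1 the PFKP share was 58.1% and 57.8%. The sum of ALDOA and ALDOC went from 224 to 140.4 FPKM in HCC1937 and from 870.3 to 652 FPKM in THP-1, with ALDOC at 13.6% and 11.4% and at 7.24% and 5.49%. LDHB, the subunit that favours lactate use, stood at 45.6 and 36.6 FPKM in HCC1937 and at 426 and 439 FPKM in THP-1. The LDHA share of the lactate dehydrogenase sum was accordingly 55.5% and 60.3% in HCC1937 and 47.5% and 41.8% in THP-1.

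**Figure D3:**
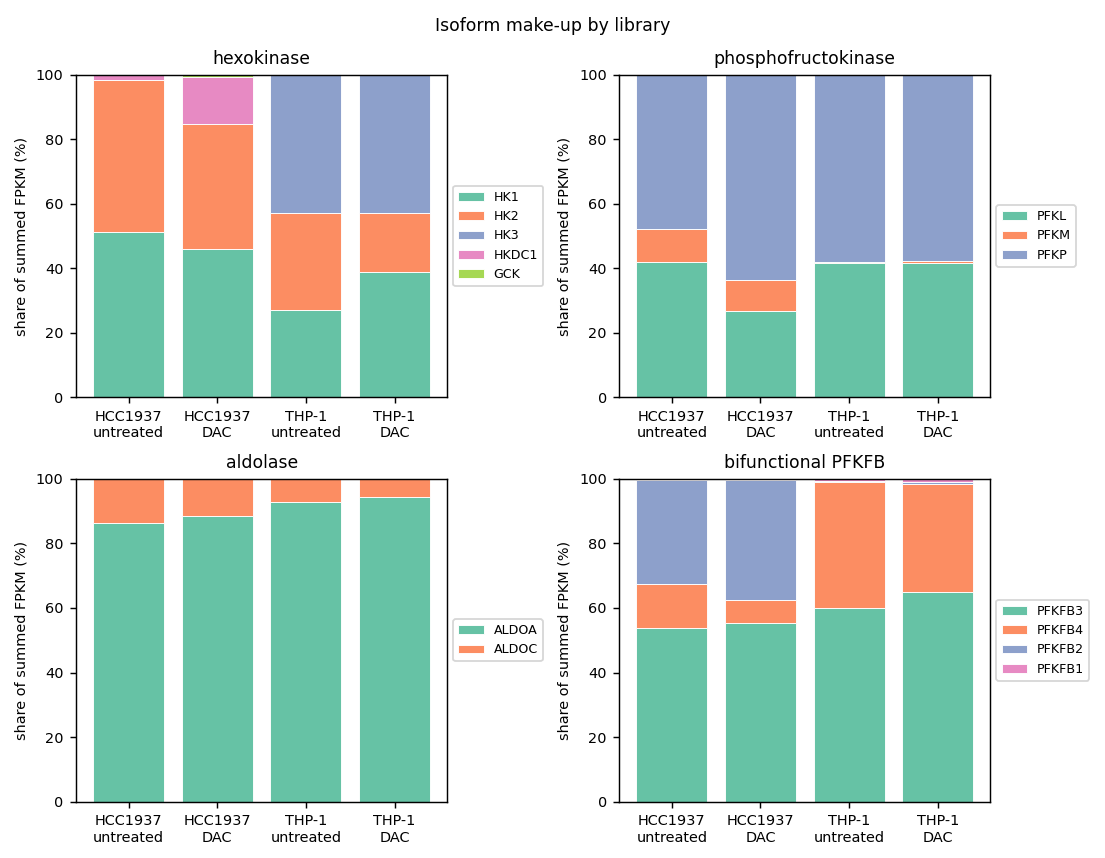
Share of each gene in the summed FPKM of its family, in percent, for hexokinase, phosphofructokinase, aldolase and the PFKFB enzymes, with 1 bar per library. The HK2 part of the THP-1 bars shrinks from 30.0% to 18.1%, and the PFKP part of the HCC1937 bars grows from 47.8% to 63.5%.

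Other partners of the members were as follows. ENO3, the muscle enolase, stood at 1.18 and 1.73 FPKM in HCC1937 and at 9.16 and 14.9 FPKM in THP-1. PGAM2, the muscle mutase, was listed at 0 in HCC1937 and stood at 24.7 and 29.9 FPKM in THP-1. Both were thus higher with DAC in THP-1 where ENO1 and PGAM1 were lower. PFKFB2 stood at 4.79 and 8.71 FPKM in HCC1937 and did not exceed 0.12 FPKM in THP-1. EPAS1, the HIF subunit known as HIF-2 alpha, stood at 18.3 and 28.8 FPKM in HCC1937 and at 1.31 and 1.53 FPKM in THP-1, so its share beside HIF1A went from 25.3% to 35.1% in HCC1937. PKLR did not exceed 0.35 FPKM in any library, LDHC did not exceed 0.36 FPKM, and HK3 was at 0.03 and 0.02 FPKM in HCC1937.

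A fit over both lines, with the line as a block, asked which members differed with DAC in the same way. Of 31 members kept in both lines, 14 were lower in both, against 16.6% of the 9798 genes kept in both, 11 of these 14 being enzymes. A further 13 were higher in HCC1937 and lower in THP-1, 3 were lower in HCC1937 and higher in THP-1, and 1 was higher in both. The shares of all genes with these 3 patterns were not counted. By line, 66.2% of all kept genes were higher in HCC1937 and 34.7% were lower in THP-1. By limma, with Benjamini-Hochberg adjustment over all 9798 genes, 0 members and 0.0% of all genes passed an adjusted p of 0.05. At an unadjusted p under 0.05 there were 2 members, ALDOC and ALDOA, and 625 of all genes (6.38%). ALDOC had a log2 difference of -0.85 ± 0.15 (limma's moderated SE, 2 lines) and an adjusted p of 0.64 by limma. ALDOA had -0.51 ± 0.19 (moderated SE, 2 lines) and the same adjusted p of 0.64 by limma. This fit has 1 residual degree of freedom per gene, and the lines differ in dose and time. With variance shared over genes the total is 5.68 degrees of freedom, so the SE rests largely on other genes and not on the gene's own spread.

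Neighbouring pathways, from lists written from general knowledge, had medians closer to 0 than the members in THP-1, a difference that was not tested. Pyruvate dehydrogenase and citric acid cycle genes had 0 of 28 past 2-fold in THP-1 and a median log2 difference of 0.05. As deposited 9 of 28 were lower, against 34.7% of all kept genes. Under median-of-ratios scaling 18 of 28 were lower (median -0.03), against 49.9% of all kept genes. In HCC1937 the same list had 0 of 29 past 2-fold and a median of -0.07, with 19 lower, against 33.5% of all kept genes. Among the 19 was MPC1, a subunit of the mitochondrial pyruvate carrier, at 6.54 FPKM untreated and 3.07 with DAC. Regulators of HIF had a median of 0.07 in THP-1 with 0 of 14 past 2-fold, and 0.15 in HCC1937 with 1 of 16 higher. That gene was CITED2, which competes with HIF for its coactivator, at 21.5 and 47.0 FPKM, and it was short of 2-fold under both scalings. In THP-1 CITED2 stood at 197 and 155 FPKM.

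Further hypoxia-induced genes lay between. In THP-1 23 of 30 were lower, against 34.7% of all kept genes, with a median of -0.11 and 0 past 2-fold. In HCC1937 14 of 35 were lower, against 33.5% of all kept genes, with 1 past 2-fold higher and 1 lower. The lower gene was DDIT4, an inhibitor of mTOR signalling, at 297.1 FPKM untreated and 59.6 with DAC in HCC1937 and at 71.3 and 50.3 FPKM in THP-1. The higher gene was HMOX1, the haem-degrading enzyme, at 4.53 and 17.8 FPKM in HCC1937 and at 11.1 and 6.56 FPKM in THP-1.

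Other isoforms and lactate exporters had 2 of 13 higher and 0 lower in HCC1937 and 0 of 15 past 2-fold in THP-1. Besides HKDC1 the higher gene was SLC2A6, a lysosomal hexose transporter, at 12.3 and 31.6 FPKM. HKDC1 was kept in HCC1937 through the DAC library alone, so it had to be higher. The lactate exporter SLC16A3 stood at 46.3 and 42.4 FPKM in HCC1937 and at 342 and 296 FPKM in THP-1. The pentose phosphate pathway, which branches off after hexokinase, had 1 of 11 higher and 0 lower in HCC1937 and 0 of 11 past 2-fold in THP-1. The higher one was TKTL1, a transketolase-like gene, with 0 FPKM untreated and 37.3 after DAC. That is 848-fold against a floor of 3 reads, with a counting interval that starts at 689. TKTL1 too was kept through the DAC library alone in HCC1937, so it had to be higher. TKT, the main transketolase, stood at 182 and 97.3 FPKM. In THP-1 TKTL1 stood at 31.3 and 30.7 FPKM.

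Gluconeogenesis and glycogen genes had 2 of 16 higher and 0 lower in HCC1937 and 0 of 12 past 2-fold in THP-1. FBP2, a muscle fructose bisphosphatase that runs against phosphofructokinase, stood at 0.24 FPKM untreated and 12.6 with DAC. FBP2 was kept through the DAC library alone, so it had to be higher. PYGL, liver glycogen phosphorylase, stood at 2.85 and 10.9 FPKM. FBP1, the liver form of the bisphosphatase, stood at 44.2 and 47.6 FPKM. These counts are to be read against the 10.3% of all kept HCC1937 genes called higher. In HCC1937 the median of every neighbouring list but the citric acid cycle was above 0 as deposited. In all 6 lists it was below the 0.19 of all kept genes. Under median-of-ratios scaling it was below 0 in all 6 lists, from -0.28 for the citric acid cycle to -0.00 for regulators of HIF. All kept genes had a median of 0.01 under that scaling.

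**Figure D4:**
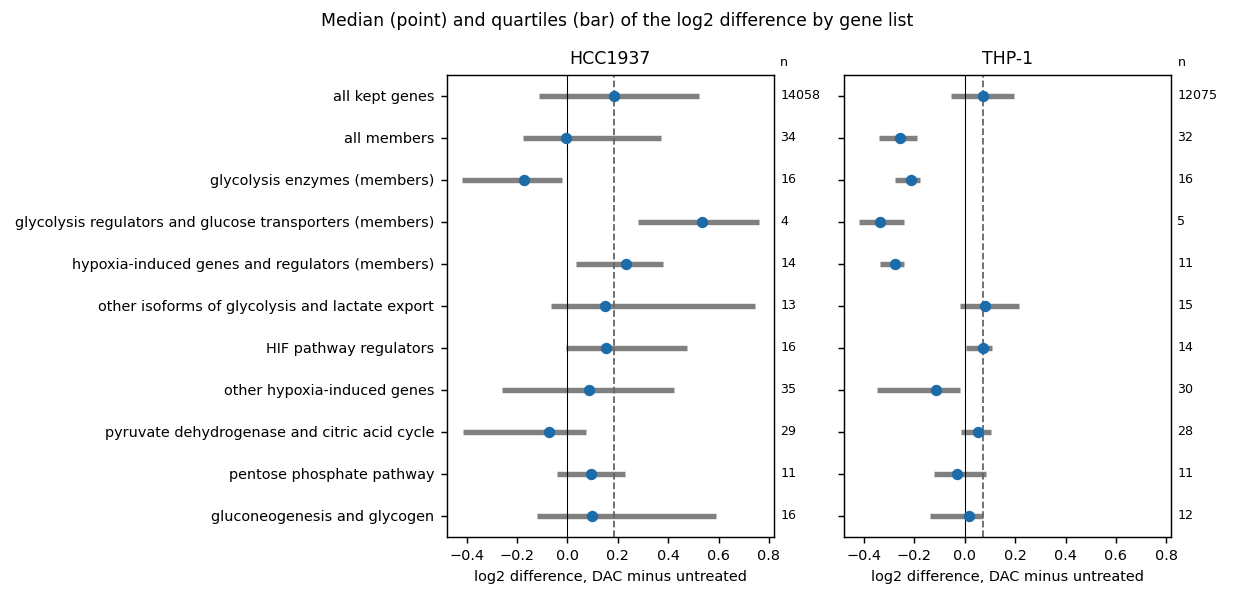
Median (point) and quartiles (bar) of the log2 difference, DAC minus untreated, for each gene list and for all kept genes in HCC1937 (left) and THP-1 (right), with the number of kept genes at the right of each panel. In THP-1 the 3 lists of members have medians of -0.21, -0.34 and -0.28, while all kept genes have 0.07.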

How the data were processed

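RNA was sequenced from 4 libraries, 1 per group, grouped by the titles and the DAC label. The labels' protocols give mRNA purification and TruSeq library preparation. The tools FastQC, cutadapt, STAR and HTSeq and the build hg38 are those of the submitters' processing notes. Versions, annotation and strand use are not given in the sources used here. The deposited table names no unit. Its values were read as FPKM made by the authors, since they have 2 decimals and, for genes of 50 to 250 bp, value times GENCODE 29 exon length lies within 0.1 of a whole multiple of 1 step in 89.4% to 92.6% of genes. That step gave the depth. THP-1 has no value in 37039 of 60612 lines, and its values imply gene lengths closer to RefSeq transcripts.

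The 1079 lines of 76 repeated symbols were left out. Values were not rescaled. Read numbers of a gene came from its FPKM, exon length and the depth (RefSeq-linked transcripts for THP-1, so approximate there), and ratios have exact (Clopper-Pearson) 95% intervals of counting error. Where the plan allowed for counts, the FPKM rule was used. For both lines together, log2(FPKM + 1) was fitted with limma 3.58.1 (R 4.3.3), blocking on line, with a trend on intensity. The procedure was run on simulated data in which both lines had the same fold change. That run does not test the fit for lines that respond differently. Other steps used Python 3.11.15 with numpy 2.4.6, pandas 2.3.3 and scipy 1.17.1. Named genes are every member, listed genes called in either line, isoform partners fixed by name, and a few others chosen after their values were seen (MPC1, TKT, SLC16A3, FBP1), except for items not reported here. The members and lists were chosen with earlier results of these data known. Alternatives were 2 scalings over kept genes, other pseudocounts, filters and fold sizes, and other limma settings. The following were chosen after seeing the data: the counts of genes higher or lower by any amount and their background at 50 FPKM, the counts without members at 1 FPKM in the DAC library alone, the counting interval as a rule, the grouping into enzyme families, the choice of members that went opposite ways, and the genes behind the scaling factors. Scaling factors were first taken over all genes above 0 and then, with that result known, over kept genes. Both versions are reported.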

Additional observations from a re-analysis of the deposited data

Results flagged for a closer look

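In 10 members the libraries moved opposite ways in the lines, higher with DAC in HCC1937 and lower in THP-1, with the counting interval of the ratio off 1 in both, a rule chosen after seeing the data. The share of all genes that crossed in this way was not counted, so 10 has no background. By line, 66.2% of all kept genes were higher in HCC1937 and 34.7% were lower in THP-1. BNIP3L, at 0.17 in HCC1937, lay below the median of 0.19 of all kept genes there. The difference between the lines was not tested, since each line has 1 library per group, and line, dose and time cannot be told apart. As the HCC1937 log2 difference minus that of THP-1, it was 1.34 for SLC2A3, 1.16 for BNIP3, 1.14 for ANKRD37, 0.84 for SLC2A1 and 0.66 for MXI1. It was 0.60 for KDM3A, 0.57 for PGAM1, 0.54 for EGLN1, 0.49 for BNIP3L and 0.42 for PFKP. All 10 stayed opposite under upper-quartile scaling and 9 under median-of-ratios scaling, the exception being BNIP3L. With scaling factors from all genes above 0, 8 stayed opposite, without BNIP3L and PFKP. For SLC2A3 and MXI1 the filter itself fixed the HCC1937 direction, since in that line they reached 1 FPKM with DAC but not untreated. The set holds 6 of the hypoxia members, both glucose transporters and 2 enzymes.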

How the results depend on the processing

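In HCC1937 the count of members past 2-fold was 2 as deposited. It was 3 under median-of-ratios and under upper-quartile scaling (2 higher and 1 lower, ALDOC being added), 3 with a pseudocount of 0.1, 0 with a pseudocount of 10, 0 with genes of at least 5 FPKM, 9 at 1.5-fold and 0 at 3-fold. The 9 at 1.5-fold were 5 higher and 4 lower, against 21.9% and 5.91% of all kept HCC1937 genes. With factors from all genes above 0, the version computed first, both scalings gave 4 (2 higher, with PFKL and ALDOC lower). Chosen after seeing the data, a counting interval wholly beyond 2-fold gave 3 (CA12 added) in HCC1937 and 0 in THP-1. The share of all kept genes under that rule was not counted. In THP-1 the count of 0 became 3 at 1.5-fold and was 0 under the other settings. These 3 were 1 higher and 2 lower, against 3.3% and 1.0% of all kept THP-1 genes. The median of the members in HCC1937 was -0.20 under median-of-ratios scaling, -0.16 under upper-quartile scaling, 0.053 without a filter and -0.044 at 5 FPKM, and -0.27 and -0.29 under these scalings over all genes above 0. In THP-1 it was -0.33, -0.28, -0.25, -0.26, -0.34 and -0.30 under these, in that order, -0.28 with a pseudocount of 0.1 and -0.18 with one of 10. limma called 0 members under each of 7 other settings, the fit without the line block among them, and 2 genes in all at an adjusted p of 0.1 or with genes of at least 5 FPKM. The fit with the line as a block is a paired analysis over 2 pairs. No replicate could be left out, since each group has 1 library. Of single gene values under other settings, 208 of 359 in HCC1937 and 273 of 338 in THP-1 were labelled the same. For genes not called, that meant staying within the counting interval, and for called genes keeping the sign. A filter does not alter the value of a kept gene, so part of this agreement was fixed in advance. That 0 called values changed sign was fixed too. Pseudocounts and filters cannot change a sign, and the scaling shifts were far smaller than 2-fold. Few reads limit ANKRD37, CA9, EGLN3 and SLC2A3.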
